A study of Mus musculus with 6 samples.

Results

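Carnitine carries long-chain fatty acids into mitochondria, where they are broken down. The genes described here are Cpt2 and 9 others of this route in the mouse hippocampus, taken as a list of 10: Cpt1a, Cpt1b, Cpt1c, Slc25a20, Cpt2, Crat, Crot, Acadvl, Acadl and Acadm. A gene counted as measured where a probe set of the array carried its symbol alone. This held for 9 of the 10, out of 19938 genes measured in all. The row that holds Cpt1b is shared with a second gene symbol, so no value is given for Cpt1b. Each of the 9 genes had 1 probe set. Cpt2 was picked because its ethanol and saline values differed in these arrays, and the others were added as its neighbours in the pathway. Their ethanol and saline values are therefore given as a description, with no p-value. Calls by limma over all genes are counted for them only beside the share of all genes called, and nothing is read from those counts.

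Affymetrix Mouse Gene ST arrays had been used to compare 2 groups of male C57Bl/6J mice at an age of 70 days. Ethanol mice had received 2.5 g/kg of ethanol in saline by injection under the skin, 2 times on day 4 and 2 times on day 7 after birth, and saline mice had received saline alone at the same times. The study split littermates, matched for sex and weight, between ethanol and saline, so the groups share litters. Whole hippocampus RNA of 3 males from different litters made up each array. Which litters went into which pool is not given in the labels. With 3 arrays a group, 9 mice stand behind each mean. Errors therefore describe variation among pools of mice. Values are log2 expression after RMA, the authors' background correction, normalization and summary of probes, so that a difference of 1 is a doubling. They were read as deposited. RMA values of different probe sets are on different scales, so groups were compared within a gene, and levels across genes served only as a rough guide to dim probe sets.

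Activated fatty acids cannot cross the inner mitochondrial membrane. CPT1 enzymes on the outer membrane link the fatty acid to carnitine, the carrier encoded by Slc25a20 takes the acylcarnitine inward in exchange for free carnitine, and CPT2 on the inner membrane returns the fatty acid to coenzyme A. Acyl-CoA dehydrogenases then start beta-oxidation, each for a range of chain lengths. In the brain this route is used far less than glucose, and astrocytes are held to be its main site.

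As that guide, 1190 smell and vomeronasal receptor genes were used, 95% of which had a mean no higher than 5.37. All 7 neuron markers and all 9 markers of hippocampal principal neurons had means above 5.37, as did the 9 measured carnitine and dehydrogenase genes. Since probe sets differ in scale, this is not a test of whether a gene was expressed. Array medians lay between 5.84 and 5.89, and the lowest correlation between any 2 arrays was 0.997 across probe sets, which are not replicates. Markers of tissues next to the hippocampus differed between pools. Relative to saline, 10 thalamus markers averaged 0.876, 0.364 and 0.162 in ethanol pools 1, 2 and 3, and individual saline pools ranged from -0.016 to 0.032. The average of 8 choroid plexus markers was 0.961, -0.232 and 0.583 in the same ethanol pools, and saline pools ranged from -0.158 to 0.163.

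Cpt2, the inner membrane enzyme, was the one gene of the 9 whose ethanol pools all lay above the saline pools. Its log2 expression was 7.77, 7.69 and 7.69 in ethanol pools 1, 2 and 3, against 7.38, 7.43 and 7.49 in saline pools 1, 2 and 3. The lowest ethanol pool was 0.20 above the highest saline pool, a gap wider than the whole range of either group. The means were 7.72 ± 0.05 in ethanol pools and 7.43 ± 0.06 in saline pools (SD, n = 3 each), a difference of 0.28 ± 0.05 (SE) or 1.22-fold. Of the 19938 genes, 88 had a larger difference in either direction and 76 a larger increase. Without any 1 pool the difference stayed between 0.26 and 0.31. These are the values for which Cpt2 was picked.

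The start of Cpt2 lies on chromosome 4. The sequence from 250 bases before it to 50 bases after it is shown because Cpt2 is the gene the comparison turned on. Beside it is that of Cpt1a, the CPT1 gene of liver and of many other tissues, whose enzyme links the fatty acid to carnitine at the outer membrane. On chromosome 19 the Cpt1a gene begins at 3322326, before the sequence shown, so the start used for Cpt1a lies inside the gene. Both windows and their start sites are from RefSeq, build GRCm38.p6, and capitals mark each GC box, the letters GGGCGG on either strand, known as a site for factors of the Sp1 family.
Cpt2, chr4:107923540-107923839, minus strand: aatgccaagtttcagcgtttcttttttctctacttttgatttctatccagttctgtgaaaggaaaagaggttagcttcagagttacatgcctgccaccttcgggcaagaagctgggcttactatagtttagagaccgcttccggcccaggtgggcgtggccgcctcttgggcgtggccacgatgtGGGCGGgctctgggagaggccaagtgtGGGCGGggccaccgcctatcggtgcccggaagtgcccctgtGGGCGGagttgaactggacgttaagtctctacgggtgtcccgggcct
Cpt1a, chr19:3323051-3323350, plus strand: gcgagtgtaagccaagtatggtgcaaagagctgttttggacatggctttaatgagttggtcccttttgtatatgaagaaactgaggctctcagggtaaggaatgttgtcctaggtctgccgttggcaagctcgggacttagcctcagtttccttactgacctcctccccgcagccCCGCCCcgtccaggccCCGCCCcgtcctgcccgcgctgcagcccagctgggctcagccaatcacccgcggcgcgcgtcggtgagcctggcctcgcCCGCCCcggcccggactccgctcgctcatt

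Cpt2 and Cpt1a each had 3 GC boxes in this window, those of Cpt2 on the strand of the gene and those of Cpt1a on the other strand. A promoter was listed for 8 of the 9 measured genes, and 6 of the 8 held a GC box, as did 35.7% of 32851 mouse promoter windows of this length. The half-site AGGTCA of nuclear receptors, the family of the PPAR factors that control fat oxidation genes, was found on either strand in 4 of 8 (Cpt1a, Cpt1c, Acadvl and Acadm) and in 16.3% of all windows. The longer site TCAAGGTCA of oestrogen-related receptors, which contains that half-site, was in 0 of 8 and in 0.423% of all windows. A match is only a run of letters, and no binding was measured here.

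**Figure D1:**
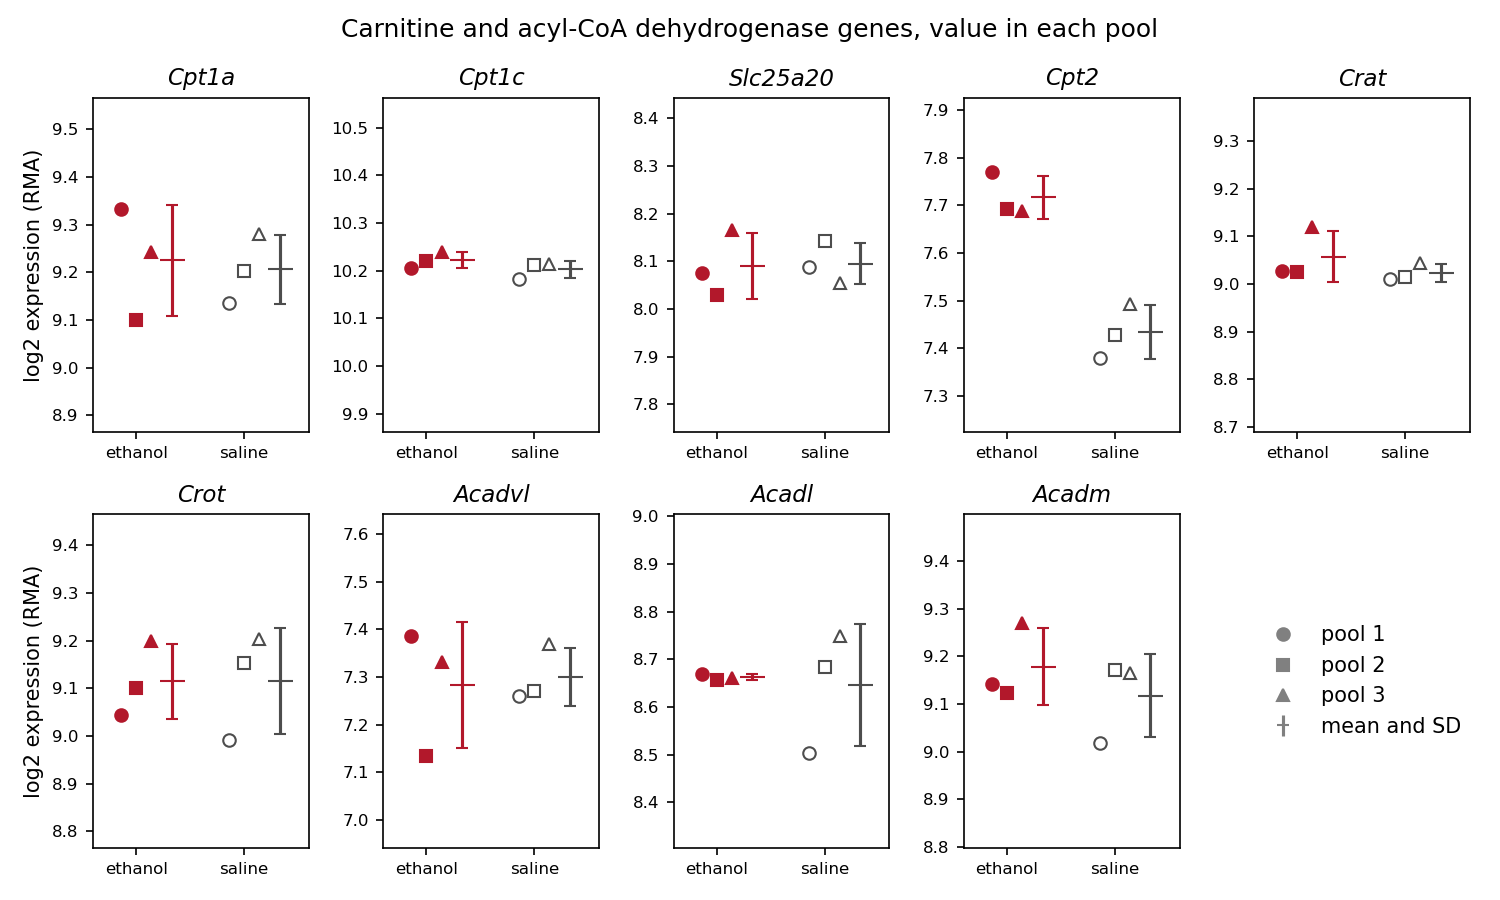
Log2 expression (RMA, vertical axis) of the 9 measured genes in each ethanol pool (filled) and saline pool (open), with the mean and SD of the 3 pools of a group; each panel spans 0.7 log2 units. In Cpt2 the ethanol pools, from 7.69 to 7.77, all lie above the saline pools, from 7.38 to 7.49, and in the other 8 genes the groups overlap.

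The genes of the step before CPT2 did not share its pattern. Cpt1a had values of 9.33, 9.10 and 9.24 in ethanol pools 1, 2 and 3, against 9.14, 9.20 and 9.28 in saline pools 1, 2 and 3. The ethanol pools held both the highest and the lowest of the 6 values, and the difference was 0.02 ± 0.07 (SE). Cpt1c codes for a relative of CPT1 that is found mainly in neurons, in the endoplasmic reticulum, and that has little enzyme activity. It had 10.21, 10.22 and 10.24 in the ethanol pools, against 10.18, 10.21 and 10.21 in the saline pools. Its pools lay close together, with a pooled SD of 0.02 that was smaller than that of all but 1.76% of genes, and its difference was 0.02 ± 0.04. Slc25a20, the carrier of the inner membrane, had 8.07, 8.03 and 8.17 in the ethanol pools, against 8.09, 8.14 and 8.06 in the saline pools. The groups overlapped, and the difference was -0.01 ± 0.05.

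Crat and Crot code for the transferases that act on short and medium chains. Crat, the acetyl transferase of mitochondria and peroxisomes, had 9.03, 9.03 and 9.12 in the ethanol pools, against 9.01, 9.02 and 9.04 in the saline pools. Ethanol pool 3 stood above the rest and the other ethanol pools lay within the saline range, at a difference of 0.03 ± 0.04 (SE). Crot, the octanoyl transferase of peroxisomes, had 9.04, 9.10 and 9.20 in the ethanol pools, against 8.99, 9.15 and 9.20 in the saline pools. Its means were 9.11 in ethanol pools and 9.12 in saline pools, with a difference of -0.00 ± 0.06.

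The acyl-CoA dehydrogenases catalyse the first reaction after CPT2. Acadvl, for very long chains, had 7.39, 7.13 and 7.33 in the ethanol pools, against 7.26, 7.27 and 7.37 in the saline pools. Its ethanol pools spanned the saline range, and the difference was -0.02 ± 0.07 (SE). Acadl, for long chains, had 8.67, 8.66 and 8.66 in the ethanol pools, against 8.50, 8.68 and 8.75 in the saline pools. The ethanol pools of Acadl lay close together between the lowest and the middle saline pool (SD 0.01 in ethanol pools and 0.13 in saline pools), and the difference was 0.02 ± 0.06. Acadm, for medium chains and known for the human deficiency of that name, had 9.14, 9.12 and 9.27 in the ethanol pools, against 9.02, 9.17 and 9.16 in the saline pools. Its difference of 0.06 ± 0.06 was the largest after that of Cpt2.

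Of the 9 genes, 6 had a higher mean in ethanol pools and 3 a lower one. The median difference was 0.02 over the 9 and also 0.02 over the 8 without Cpt2, which ranged from -0.02 to 0.06, where the median over all genes was 0.00. Cpt2 was the 1 gene of 9 past an unadjusted p under 0.05 in limma, as were 5.22% of all genes in either direction and 2.8% as higher. It was also the 1 gene past both that threshold and 1.2-fold in limma, as were 0.276% of all genes. The study used the same thresholds with its own test, and its list of differentially expressed genes does not hold Cpt2. With the methods' t-test in place of limma, the difference of Cpt2 was 0.28 ± 0.04 (SE), or 1.22-fold, where limma gave 0.28 ± 0.05. Why the study's list does not hold Cpt2 was not tested. Pools did not overlap in 1 of 9, against 10.4% of all genes in either direction and 5.35% with ethanol above. Since Cpt2 was chosen by this contrast, its count is not evidence about the list. After Benjamini-Hochberg adjustment over 23410 probe sets, 0 (0%) passed in limma, Cpt2 among those that did not, with a lowest adjusted p = 0.931. In the same fit 1202 probe sets passed the unadjusted threshold, and the methods' t-test, the study's own comparison of 2 groups, gave 1161 there and 0 after adjustment. With 3 pools a group the smallest p of an exact permutation test is 0.1, so none was run.

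The measured genes also varied among pools of 1 group. The pooled SD within groups ran from 0.02 in Cpt1c to 0.10 in Acadvl, with a median of 0.08 over the 9 and 0.06 over all genes. Saline pool 1 held the lowest of the 6 values in 6 of the 9 genes (Cpt1c, Cpt2, Crat, Crot, Acadl and Acadm) and ethanol pool 2 in the other 3 (Cpt1a, Slc25a20 and Acadvl). Over all genes these pools were lowest in 18.4% and 16.4%. In the other genes of fat oxidation described next, saline pool 1 was lowest in 28 of 73 (38.4%) and ethanol pool 2 in 13 of 73 (17.8%). The mean of 9 astrocyte markers was -0.072 from the saline mean in ethanol pool 2 and -0.059 in saline pool 1, the lowest of the 6 pools. The mean of 7 oligodendrocyte markers was at -0.169 in ethanol pool 2 and -0.071 in saline pool 1, with ethanol pool 1 at -0.073. All 16 of these markers were above the level of receptor genes. The mean of 6 microglia markers had another order, lowest in ethanol pool 1 at -0.077, with saline pool 1 at -0.063 and ethanol pool 2 at -0.052. The part of glial content in these values was not tested. In bulk tissue, fewer cells of a type and less RNA per cell cannot be told apart.

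The rest of the pathway was read from 10 lists that hold 81 genes besides the 10 above, of which 73 were measured. None of the 73 passed an unadjusted p under 0.05 in limma, where 5.22% of all genes did, and the lowest p was 0.0578, with an adjusted p of 0.931 or more. The methods' t-test called 1 of them, Acox3. Their median difference was -0.00, with 35 higher and 38 lower, and the median size of a difference without its sign was 0.03 over the 73 and 0.04 over all genes. Pools did not overlap in 4 of 73 (Acad10, Acot7, Acox3 and Slc27a4, 5.48%), against 10.4% of all genes. For 68 of the 73, the 95% confidence interval lay wholly within 1.2-fold of the saline level in both directions. The other 5 were Acads, Acaa2, Acad8, Slc22a4 and Ppargc1b, and the intervals of all 73 lay between 0.763 and 1.29 times the saline level. Outside the rule for naming, Acaa2, Ppargc1b, Slc27a4, Hadha, Hadhb, Bbox1, Acsl5, Acsl6, Hsd17b4, Oxct1 and Acat1 were named after their values were seen.

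Of 15 genes of the later steps in mitochondria, 0 passed, with a median difference of -0.00. Acads, the short-chain dehydrogenase, had 7.15, 6.93 and 7.30 in the ethanol pools, against 7.09, 7.26 and 7.34 in the saline pools, with ethanol pool 2 lowest (difference -0.10 ± 0.10, SE). Hadha and Hadhb, the subunits of the trifunctional protein that takes long chains through the last 3 reactions, differed by 0.00 ± 0.04 and -0.02 ± 0.04. Acaa2, the thiolase that releases acetyl-CoA, had 9.73, 9.34 and 9.68 in the ethanol pools, against 9.33, 9.47 and 9.54 in the saline pools. Ethanol pools 1 and 3 of Acaa2 lay above all saline pools and ethanol pool 2 near the lowest of them, the order of the choroid plexus markers in those pools. Of 4 acyl-CoA dehydrogenases of amino acid breakdown, 0 passed. Acad8, the one for valine, had the same order as Acaa2, at 8.96, 8.53 and 8.85 in the ethanol pools, against 8.54, 8.70 and 8.71 in the saline pools. The difference of Acad8 was 0.13 ± 0.10 (SE). It passed the unadjusted threshold in 1 of 17 alternative settings, without ethanol pool 2, at 0.255. Without ethanol pool 1 the difference was 0.04, and without ethanol pool 3 it was 0.09. The ethanol pools came in this order in 16 of the 73 genes (21.9%), in 3 of the 9 described above (Cpt1a, Acadvl and Acadl) and in 15.5% of all genes. The part of choroid plexus content in these genes was not tested.

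Carnitine itself reaches cells mainly through the transporter OCTN2, encoded by Slc22a5. OCTN1, encoded by Slc22a4, was listed beside it. The genes Slc22a5 and Slc22a4 came nearest to the threshold. Slc22a5 had 7.62, 7.51 and 7.66 in the ethanol pools, against 7.52, 7.45 and 7.50 in the saline pools, and Slc22a4 had 7.69, 7.59 and 7.57 in the ethanol pools, against 7.37, 7.58 and 7.51 in the saline pools. In both genes the groups overlapped. The difference of Slc22a5 was 0.11 ± 0.05 (SE), with a 95% interval from 0.996 to 1.16 times the saline level. That of Slc22a4 was 0.13 ± 0.06, with a 95% interval from 0.996 to 1.204 times the saline level. Neither passed (adjusted p = 0.931 in limma for both). Of 17 alternative settings, Slc22a5 passed the unadjusted threshold in 2 and Slc22a4 in 3. Both passed with quantile normalization, at 0.11 and 0.13. Of 5 measured genes of carnitine synthesis and uptake, 0 passed, and the median of 0.11 over the list rests on the transporter genes. These include Slc22a21, at 0.11 ± 0.06, whose mean was below the level of receptor genes. Bbox1, the last enzyme of carnitine synthesis, differed by -0.00 ± 0.07.

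Malonyl-CoA, made by the acetyl-CoA carboxylases and removed by the decarboxylase Mlycd, blocks CPT1. Acaca, the carboxylase of fat synthesis, had 8.94, 8.83 and 8.82 in the ethanol pools, against 8.94, 8.92 and 9.02 in the saline pools. Ethanol pools 2 and 3 lay below all saline pools and ethanol pool 1 among them, at a difference of -0.10 ± 0.05 (SE), which did not pass (adjusted p = 0.931 in limma). Acaca had 2 probe sets, and their average differed by -0.15 ± 0.04 and passed the unadjusted threshold. Acacb, the carboxylase at the mitochondrial membrane, differed by 0.06 ± 0.06 and Mlycd by 0.05 ± 0.07. Of the 5 genes of this control, 0 passed.

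Among 9 measured genes of fatty acid uptake and activation, the acyl-CoA synthetases Acsl4, Acsl5 and Acsl6 differed by -0.03 ± 0.04, -0.06 ± 0.06 and -0.02 ± 0.04 (SE), and 0 of the 9 passed. Of 5 thioesterases, which undo that activation, 0 passed. Acot7, the thioesterase of neurons, had 11.37, 11.36 and 11.43 in the ethanol pools, against 11.35, 11.31 and 11.32 in the saline pools. Its groups did not overlap, by a margin of 0.01, and the difference was 0.06 ± 0.04. Acot2 differed by -0.10 ± 0.06, and its sequence is close to that of Acot1, so their signals may not be fully separate.

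Peroxisomes shorten very long and branched chains and hand the products on as carnitine esters. Acox3, an oxidase of branched chains, had 7.89, 7.84 and 7.83 in the ethanol pools, against 7.90, 7.96 and 7.96 in the saline pools. All ethanol pools lay below all saline pools, by 0.01 at the nearest, and the difference was -0.09 ± 0.04 (SE; adjusted p = 0.931 in limma). Hsd17b4, the bifunctional enzyme of the next reactions, differed by -0.05 ± 0.05. Of 12 measured peroxisomal genes 0 passed, with 6 higher and 6 lower. Of 4 measured genes of ketone bodies, the fuel that liver makes from fatty acids, 0 passed. Bdh1, which interconverts both ketone bodies, differed by 0.03 ± 0.06, Oxct1, the enzyme of their use, by -0.06 ± 0.05 and the thiolase Acat1 by -0.02 ± 0.05.

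The receptors and coactivators that switch on fat oxidation genes did not pass either, with 0 of 9. Ppara, the receptor for fatty acids that controls Cpt2 and Cpt1a in liver, had 6.23, 6.12 and 6.04 in the ethanol pools, against 6.06, 6.11 and 6.10 in the saline pools. Its ethanol pools enclosed the saline pools, with a difference of 0.04 ± 0.05 (SE). Ppard and Pparg differed by -0.05 ± 0.04 and 0.01 ± 0.06. Of 5 measured PPAR target genes 0 passed, and Pdk4, which turns cells from glucose to fat by inhibiting pyruvate dehydrogenase, differed by 0.03 ± 0.05.

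**Figure D2:**
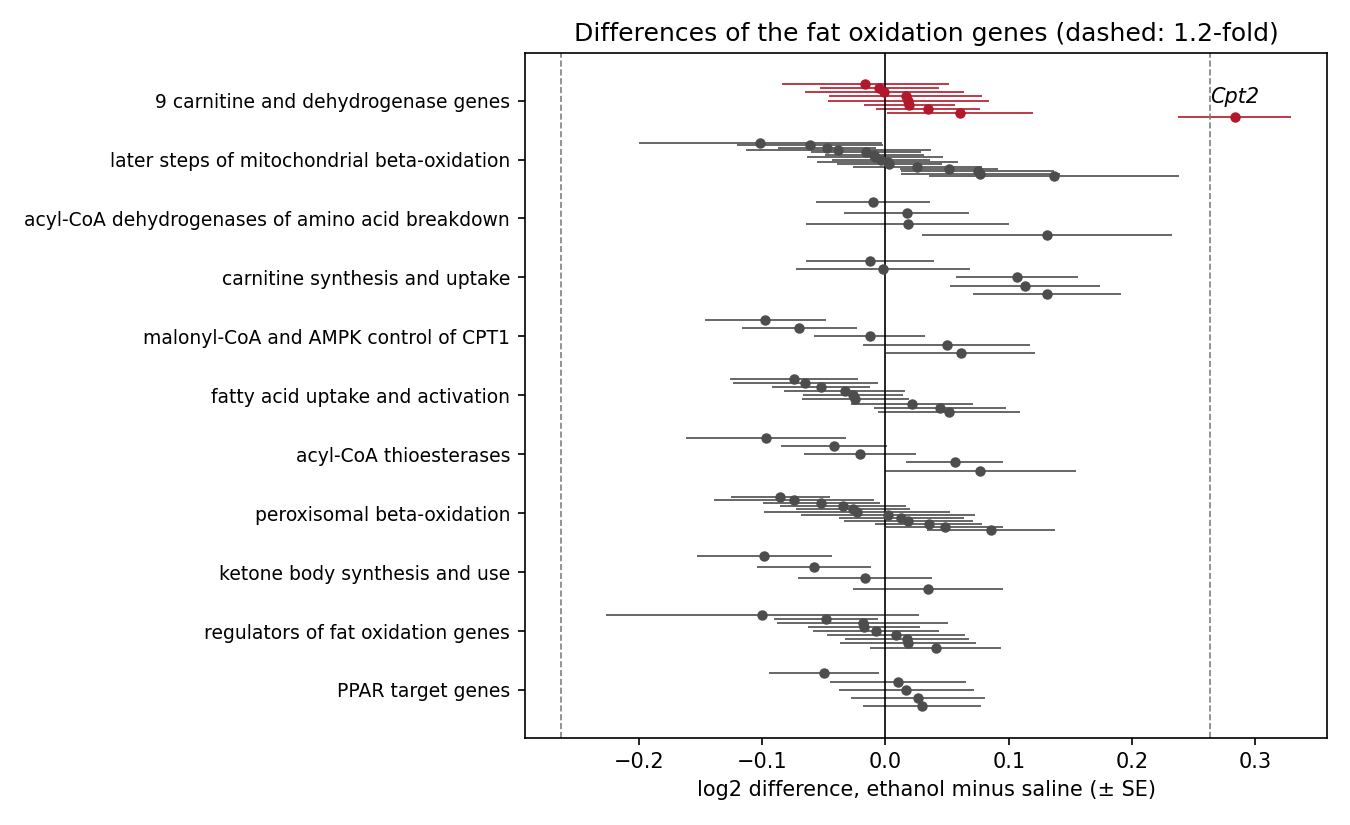
Log2 difference, ethanol minus saline (horizontal axis, points with SE bars), of the 9 measured genes and of 73 other genes of fat oxidation in 10 lists, with dashed lines at 1.2-fold. Cpt2 at 0.28 is the point past a dashed line, and the other 8 genes lie between -0.02 and 0.06.

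Cpt2 was set beside the marker lists of other tissues and cell types. Of these lists, that of the thalamus separated the groups, as Cpt2 did. The thalamus markers stood highest in ethanol pool 1, then 2, then 3, and Cpt2 was 0.34, 0.26 and 0.26 above its saline mean in those pools. Of 10 measured thalamus markers, 9 passed the unadjusted threshold as higher in limma, where 2.8% of all genes did. The list was chosen with earlier results of these data known. It holds Tcf7l2 and Synpo2, which the study had listed as higher in these arrays, so this count is not a test. Of the 10 markers, 8 were above the level of receptor genes, all but Shox2 and Gbx2. In ethanol pool 3, where the marker mean was 0.162, Cpt2 was 0.26 above its saline mean, and without ethanol pool 1 its difference was 0.26. The part of thalamic content in the value of Cpt2 was not tested. Of 8 choroid plexus markers, all above the level of receptor genes, 3 passed the threshold as higher, where 2.8% of all genes did. Their mean was below the saline mean in ethanol pool 2, where Cpt2 was 0.26 above its own. The lists of astrocytes, from -0.072 to -0.003 in ethanol pools and from -0.059 to 0.035 in saline pools, and of neurons, from -0.013 to 0.002 in ethanol pools and from -0.009 to 0.009 in saline pools, overlapped between the groups. The oligodendrocyte list overlapped as well, from -0.169 to -0.024 in ethanol pools and from -0.071 to 0.075 in saline pools. Of its 7 markers, 2 passed the unadjusted threshold as lower in ethanol pools, where 5.22% of all genes passed in either direction. These were Opalin, at -0.21 ± 0.07 (SE), and Cldn11, at -0.12 ± 0.05, and the median of the list was -0.08. The lists of hippocampal principal neurons, from -0.091 to 0.036 in ethanol pools and from -0.008 to 0.015 in saline pools, and of microglia and endothelium overlapped too, with 0 markers past the threshold. So did that of meninges and fibroblasts, from -0.11 to 0.278 in ethanol pools and from -0.064 to 0.108 in saline pools.

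**Figure D3:**
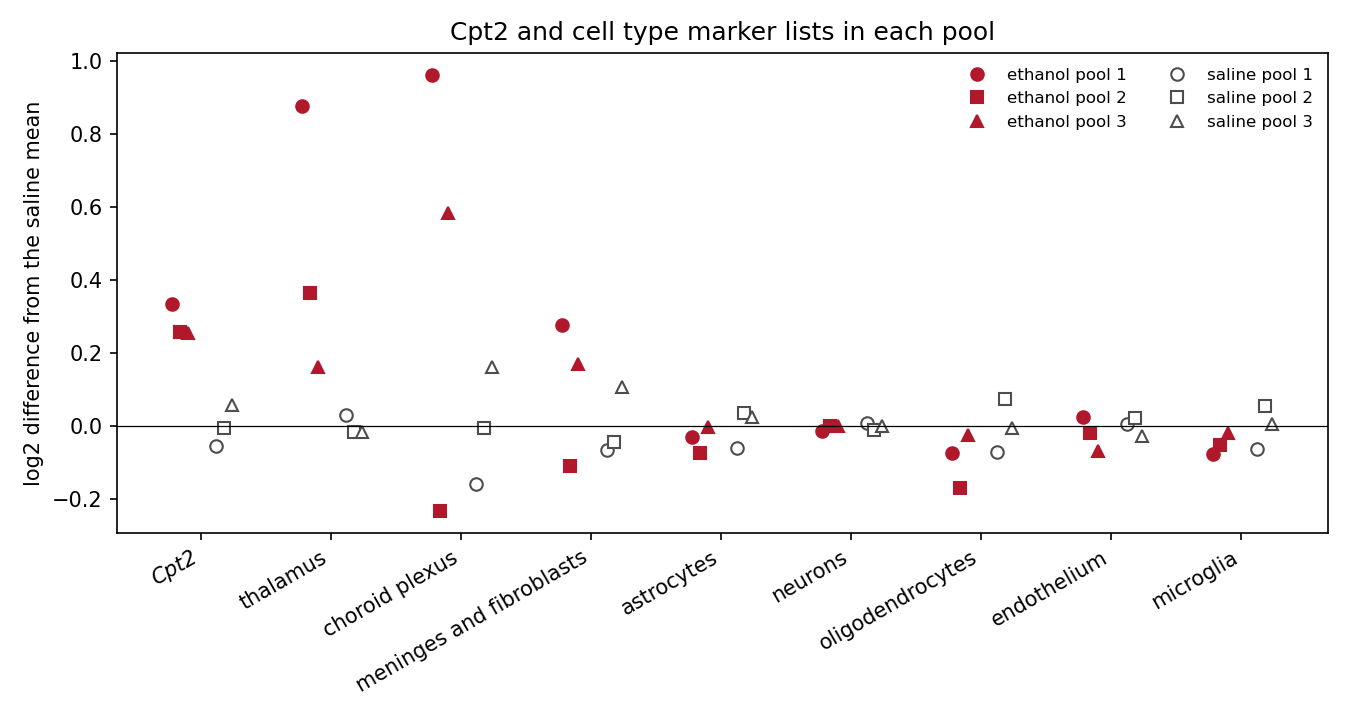
Difference from the saline mean in log2 units (vertical axis) of Cpt2 and of the mean of 8 marker lists, for the 3 ethanol pools (filled) and the 3 saline pools (open). Cpt2 lies between 0.26 and 0.34 in the ethanol pools, where thalamus markers run from 0.162 to 0.876 and choroid plexus markers from -0.232 to 0.961.

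The genes most like Cpt2 over the 6 arrays were sought by Pearson's r among 9960 genes above the median level. The 6 points fall in 2 separated groups and r carries the difference between them, so it is given as a description. The closest were Maged1, whose protein binds the p75 neurotrophin receptor (r = 0.986), the pseudogene Gm13213 (0.986), Gng2, a G protein subunit (0.967), Paqr7, a membrane progesterone receptor (0.961), and Rpa3, a subunit of the protein that covers single-stranded DNA (0.957). Their own differences were smaller than that of Cpt2, from 0.03 ± 0.04 (SE) in Paqr7 to 0.12 ± 0.04 in Gm13213. In all 5 the ethanol pools lay above the saline pools, as in 5.35% of all genes, which the choice by r to Cpt2 made likely. Maged1, for example, had 11.42, 11.42 and 11.41 in the ethanol pools, against 11.36, 11.37 and 11.38 in the saline pools, while Rpa3 had 7.20, 7.22 and 7.20 in the ethanol pools, against 7.05, 7.11 and 7.11 in the saline pools. None of the 5 belongs to the carnitine route or to the lists of fat oxidation genes.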

How the data were processed

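Gene expression was measured in 6 arrays, 3 ethanol and 3 saline, grouped by the treatment in the labels. The deposited log2 values are the authors' RMA summaries per gene and were not changed. The RMA software is not given in the sources used here. Of 35556 probe sets, 21789 have 1 gene symbol in the platform annotation, 1621 more than 1, and 12146 lack one. Ethanol was compared with saline over the 23410 named probe sets by limma (version 3.58.1, R 4.3.3; linear model, moderated variance, two-sided, no covariate), a step first tested on simulated data. The brightest probe set stood for a gene, and 99.6% of gene identifiers were found in the RefSeq table of GRCm38.p6. The number of arrays limits the precision, and the median SE of a difference was 0.05. The members and lists were chosen with earlier results of these data known. Named were the members, pathway genes past the unadjusted threshold (0), genes among the first 3 of each list, and the 5 genes most like Cpt2. Other named genes were chosen after their values were seen. Promoter letters were read from RefSeq, and figures drawn with matplotlib 3.10.9. Alternatives were the methods' t-test, a replicate block, other normalizations, filters, row sets, variance models and each array left out.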

Additional observations from a re-analysis of the deposited data

How the results depend on the processing

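The log2 difference of Cpt2 stayed between 0.26 and 0.29 in the 11 other settings tried and between 0.26 and 0.31 with 1 array left out. The median of the 9 genes ranged from -0.01 to 0.05 with 1 array left out, and the differences of all 9 moved by less than 1 SD between pools in every setting, which still turned the sign of small ones such as that of Cpt1a, from -0.04 to 0.08. Of the 73 other genes of fat oxidation, where 0 passed, 1 passed in the methods' t-test (Acox3), 2 with quantile normalization (Slc22a5 and Slc22a4), 1 with probe sets averaged per gene (Acaca) and 3 with array weights (Slc22a4, Acaca and Acox3). With 1 array left out 0 to 5 passed, with 5 without ethanol pool 2, 2 without ethanol pool 1, 2 without saline pool 2 and 1 without saline pool 1. The difference of Pparg, 0.01, turned to -0.006865 with median centring, -0.006469 with quantile normalization and -0.003776 with array weights. With 1 array left out, signs turned within the range from -0.0451 to 0.04834 in Pparg, from -0.02944 to 0.05115 in Ivd, from -0.04635 to 0.01525 in Acadsb, from -0.01041 to 0.1057 in Mlycd, from -0.02395 to 0.07182 in Bdh1, from -0.06885 to 0.0149 in Acat1, from -0.00944 to 0.08632 in Ppara and from -0.00426 to 0.0571 in Pdk4. The cause of these turns was not tested. Over all probe sets with a symbol, 1202 passed the unadjusted threshold, 494 of those above the median level, 662 of those brighter than receptor genes and 1969 of all probe sets, the sets being smaller or larger by construction, and 834 to 1484 with 1 array left out. Past both that threshold and 1.2-fold were 60, at 17 in the methods' t-test, 28 above the median level, 488 over all probe sets and 70 to 187 with 1 array left out, the 187 without ethanol pool 2. No setting gave a probe set past the adjusted threshold. The labels number the pools of both groups 1 to 3 without saying that a number is shared, and their deviations from the group means did not go together (r of -0.0488, -0.022 and 0.0588), so the pairing was tried as an alternative alone: with the replicate block 1153 probe sets passed the unadjusted threshold, 0 of the 73 genes did, and Cpt2 was at 0.28 ± 0.05 (SE).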
